A study of Mus musculus with 8 samples.

Results

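The genes described here encode subunits of the mitochondrial respiratory chain and of ATP synthase, read as messenger RNA in mouse uterine epithelium. They were chosen by name alone. The pattern took the Ndufa, Ndufb, Ndufc, Ndufs and Ndufv series, Sdha to Sdhd, every Uqcr gene, the Cox4 to Cox8 series and every Atp5 gene, and left out names ending in -ps, of which none matched. It found 84 of the 24346 gene symbols in the deposited tables. Of these, 35 belong to complex I, 4 to complex II, 8 to complex III, 20 to complex IV and 15 to complex V. Atp5s and Atp5sl, whose current names are Dmac2l and Dmac2, carry the prefix without being structural subunits and were kept apart. Ndufa4, Ndufa4l2 and Cox7a2l were counted with complex IV, where Ndufa4 protein sits in spite of its name.

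The study compared 3 control libraries with 5 libraries from mice lacking Smad2 and Smad3, the transcription factors through which TGF-beta and activin receptors signal. The conditional knockout (cKO) mice carried floxed exons 9 and 10 of Smad2, floxed exons 2 and 3 of Smad3 and Cre recombinase knocked in at the progesterone receptor locus (Pgr-cre). That driver is active after birth in pituitary, mammary gland, oviduct, ovary and uterus, so the deletion was not restricted to the epithelium. Both groups had a mixed C57BL/6/129S6/SvEv background. The labels call the other group only control, and they give neither its alleles, the age of the mice, the cycle stage nor how the epithelium was obtained. Nothing in them ties a library to an animal of its own, and the p-values therefore measure only the spread between these libraries. Library titles fall into separate runs of numbers, cKO 1 and cKO 2 in a run of their own, which was treated as a possible batch and is called the second title run.

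The respiratory chain passes electrons from NADH and succinate to oxygen along carriers held in the inner mitochondrial membrane. Complex I takes electrons from NADH, complex II from succinate, complex III passes them to cytochrome c and complex IV to oxygen. Complexes I, III and IV pump protons across that membrane, and complex V, the ATP synthase, lets them back to make ATP. Complex II is encoded wholly in the nucleus, while the other complexes join nuclear subunits to a few made from mitochondrial DNA. Many nuclear subunit genes have promoters that bind NRF1, ETS factors such as GABPA, YY1 or the estrogen-related receptors (ERR), and several complex IV subunits come in a general form and a form kept to muscle, testis or vessels.

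A pair of promoters is shown because the genes they drive, Sdhd and Uqcr10, were both called higher in cKO and differ in their known motifs. Each window runs from 250 bases before to 50 bases after the RefSeq start site, 5′ to 3′ on the gene's strand, from the GRCm38.p6 assembly. Sdhd lies at chr9:50603800-50604099 on the minus strand, and the capitals mark, in order, an NRF1 motif, an ETS motif and an ERR motif, the last pair read on the opposite strand. Uqcr10 lies at chr11:4704295-4704594 on the minus strand, and its window holds none of the 4 motifs searched.
Sdhd: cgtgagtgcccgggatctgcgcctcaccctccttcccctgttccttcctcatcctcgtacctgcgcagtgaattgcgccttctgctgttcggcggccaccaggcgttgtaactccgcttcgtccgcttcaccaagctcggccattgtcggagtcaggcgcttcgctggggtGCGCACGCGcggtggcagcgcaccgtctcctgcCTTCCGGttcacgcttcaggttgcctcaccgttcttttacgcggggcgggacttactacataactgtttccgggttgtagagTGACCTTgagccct
Uqcr10: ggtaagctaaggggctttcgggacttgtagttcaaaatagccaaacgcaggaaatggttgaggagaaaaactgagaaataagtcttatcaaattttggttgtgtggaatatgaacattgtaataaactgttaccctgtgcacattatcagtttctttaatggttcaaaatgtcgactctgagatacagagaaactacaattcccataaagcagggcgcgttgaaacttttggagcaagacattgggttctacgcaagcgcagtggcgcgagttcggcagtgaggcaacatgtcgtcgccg
The motifs were searched on both strands as GCGCANGCG for NRF1, CCGGAAG for ETS factors, AAGATGGCG for YY1 and AAGGTCA for ERR, and none of them overlaps another in the Sdhd window. RefSeq windows were found for 69 of the 84 genes, 66 by the symbol in the files and 3 by the current symbol, giving 75 windows. The NRF1 motif was in 28.0% of them, against 6.25% of all 32851 RefSeq windows of this length. The ETS motif was in 21.3% against 8.86%, the YY1 motif in 12.0% against 1.40%, and the ERR motif in 10.7% against 4.72%. At least 1 of the 4 was in 39 of the 75 windows, 52.0%, against 19.1% of all windows. Windows of the same gene can overlap, and the YY1 site of Atp5sl and the NRF1 site of Ndufa5 were each counted in more than 1 window. These are matches of letters and say nothing of binding in these libraries. Cox4i2 and Cox6c, the other members called higher, are named only.

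The epithelial label was checked against 8 markers, among them Epcam and the keratins Krt7, Krt8, Krt18 and Krt19. Their summed level ran from 4753 to 5158 in controls and from 3979 to 6592 in cKO, in FPKM (fragments per kilobase of transcript, relative to all mapped fragments) scaled between libraries by the median ratio. Smad2 read 5.69, 6.35 and 6.18 in controls and 3.79, 3.03, 4.02, 3.63 and 3.41 in cKO. On the log2(FPKM + 1) scale, used for all fold changes here, the change was -0.63 ± 0.10 (SE, n = 3 and 5, limma adjusted p = 0.00550). Smad3 read 27.4, 31.5 and 25.6 in controls and 42.6, 36.4, 29.6, 24.0 and 20.6 in cKO, with overlapping groups (log2 fold change 0.08 ± 0.22, adjusted p = 0.837). Both are sums over whole transcripts, most of which lie outside the floxed exons. The depth estimated from the deposited intervals was 44.2 to 55.6 M mapped fragments per library, lowest in cKO 3.

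Of the 84 genes, 78 reached 1 FPKM in at least 3 libraries and were tested, with limma on log2(FPKM + 1) and adjustment over all 11315 genes tested. Of these, 4 rose in cKO at an adjusted p below 0.05 and 0 fell. They were Sdhd of complex II, Uqcr10 of complex III, and Cox6c and Cox4i2 of complex IV. Cox4i2 met the filter only through its cKO libraries, all 3 controls being below 1 FPKM. The 4 genes are 5.13% of the tested members, below the 7.27% of all tested genes that were called higher. Of all genes, 6.98% were called lower. At an unadjusted p below 0.05, 18 of the 78 were higher and 0 lower, against 15.9% and 15.6% of all tested genes. In bulk tissue, a different number of cells and a different amount of RNA per cell cannot be told apart.

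The fold changes of the members were small and mostly above 0. Their median was 0.14 on the log2(FPKM + 1) scale, with 64 of 78 above 0, against a median of -0.0050 over all tested genes. This direction depended on the scaling: the member median was -0.07 with values rescaled to relative transcript numbers (TPM) and -0.06 after quantile normalization, with 29 and 32 of 78 above 0. TPM moved the median of all genes to -0.20, and against that the members stood higher by 0.13; after quantile normalization they stood at -0.02 relative to all genes. TPM also turned the split of calls over all genes from 823 higher and 790 lower to 510 higher and 1662 lower. The share of each library's summed FPKM taken by the 84 genes was 2.19%, 2.25% and 2.19% in controls and 2.14%, 2.14%, 1.96%, 2.36% and 2.19% in cKO. These shares overlapped between the groups.

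**Figure D1:**
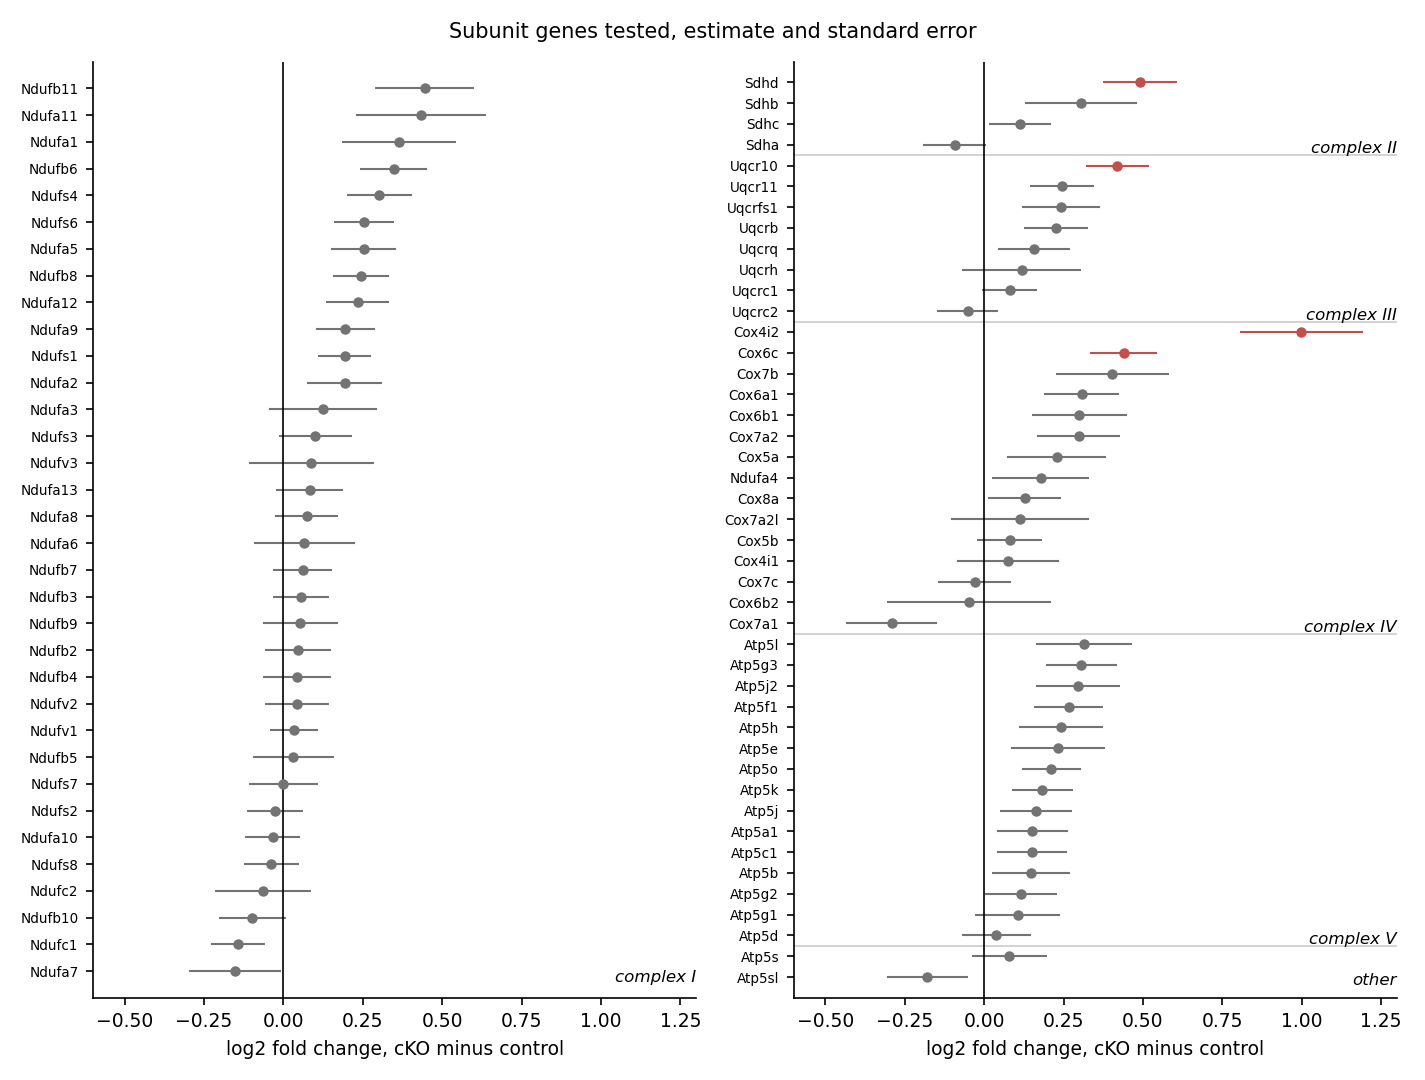
Log2 fold change (cKO minus control, on log2(FPKM + 1)) of the 78 tested subunit genes, with bars of 1 standard error; red marks the 4 genes with limma adjusted p below 0.05. Complex I is on the left, complexes II to V and the other pair on the right; most estimates lie above 0, all 15 of complex V included, a direction that did not hold with TPM or quantile normalization.

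Separation of the groups was read next. In 16 members every cKO library was above every control, and in 1, Cox7a1, every cKO library was below, against 11.7% and 12.9% of all tested genes. The 16 are named here after their values were seen. Ndufa5, Ndufa9, Ndufb6, Ndufb8, Ndufs1, Ndufs4 and Ndufs6 are of complex I, Sdhd of complex II, and Uqcr10 and Uqcr11 of complex III. Cox4i2 and Cox6c are of complex IV, and Atp5f1, Atp5g3, Atp5k and Atp5o of complex V.

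Summed over its genes on this scaling, each complex had a higher mean in cKO, and only for complex V did the groups not overlap. Complex I summed to 2176, 2137 and 2174 FPKM in controls and to 2473, 2434, 1963, 2239 and 2508 in cKO. Complex V summed to 2276, 2222 and 2267 in controls and to 2784, 2544, 2293, 2642 and 2678 in cKO. For complex V the lowest cKO library, cKO 3, lay just above the highest control, while for complex I it lay below every control. The group means went from 322 ± 23.8 to 383 ± 32.7 for complex II, from 874 ± 16.5 to 991 ± 105 for complex III and from 2482 ± 146 to 2879 ± 327 for complex IV (SD, n = 3 and 5). Over all 84 genes the sum was 8112 ± 221 in controls and 9180 ± 853 in cKO, a ratio of 1.13, with overlapping groups. Sums give most weight to the abundant genes and were not tested, and as shares of all FPKM, given above for the 84 genes, the groups overlapped.

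**Figure D2:**
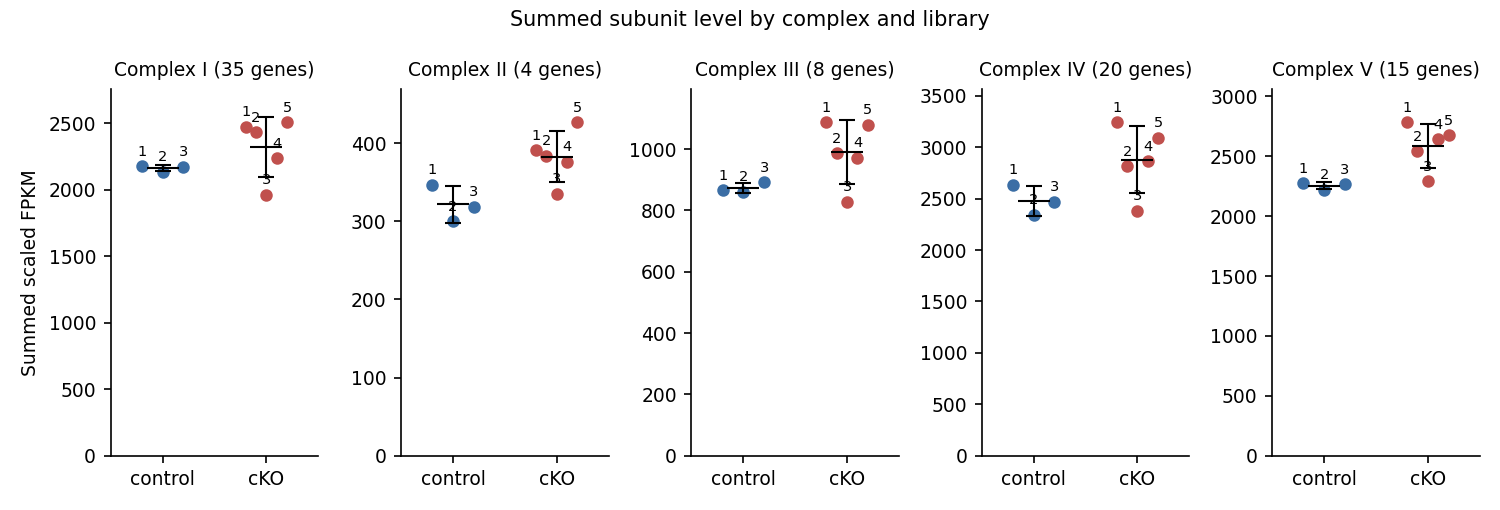
Summed scaled FPKM of each complex in every library (points, numbered by library), with the group mean and SD as bars. The 3 controls lie close together for complexes I, III and V, the 5 cKO libraries spread wider, and cKO 3 is the lowest of them in all 5 panels.

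Complex I, the NADH dehydrogenase, is built of core subunits that carry the flavin, the iron-sulfur clusters and the quinone site, and of many accessory subunits around them. Of its 34 tested genes 0 were called in either direction, with 8 higher and 0 lower at an unadjusted p below 0.05 (15.9% and 15.6% of all genes). The median log2 fold change was 0.03 over the 7 core genes and 0.08 over the 27 accessory genes, and 4 and 22 of them lay above 0. Over all 34 the median was 0.07, but -0.14 with TPM and -0.08 after quantile normalization. Control levels ran from 9.57 FPKM for Ndufb4 to 219 for Ndufa3, with a median of 53.5.

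Among the core genes, Ndufs1, which carries iron-sulfur clusters of the NADH-oxidizing arm, read 22.5, 24.2 and 23.1 FPKM in controls and 26.9, 24.3, 26.6, 27.0 and 29.0 in cKO. Its groups were apart by a narrow margin (log2 fold change 0.19 ± 0.08, adjusted p = 0.154). Ndufv1, the subunit that binds NADH and the flavin, averaged 36.1 ± 1.95 FPKM in controls and 37.0 ± 0.765 in cKO. Its log2 fold change was 0.03 ± 0.08.

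The accessory genes held both ends of the range. Ndufb11, a membrane-arm subunit encoded on the X chromosome, read 51.0, 39.1 and 40.6 FPKM in controls and 65.2, 64.6, 43.9, 61.9 and 63.8 in cKO. Its log2 fold change of 0.44 ± 0.15 was the highest of complex I and did not pass (adjusted p = 0.0913); cKO 3 lay among the controls and the other 4 cKO libraries above them. Ndufa7 had the lowest value, -0.15 ± 0.14 (adjusted p = 0.493), with 144, 130 and 140 FPKM in controls and 125, 140, 100, 110 and 150 in cKO. The groups overlapped, and quantile normalization made it the only member called lower, at -0.39. The most abundant pair by the mean over all 8 libraries, Ndufa3 and Ndufa6, averaged 219 ± 13.6 and 132 ± 5.24 FPKM in controls and 242 ± 46.5 and 140 ± 26.7 in cKO.

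Of complex II, succinate dehydrogenase, all 4 genes were tested and 1 rose. Sdhd, which with Sdhc anchors the enzyme in the membrane and forms the quinone site, read 88.8, 78.5 and 90.3 FPKM in controls and 118, 109, 118, 116 and 147 in cKO. Every cKO library was above every control, cKO 3 included. The mean went from 85.9 ± 6.41 to 122 ± 14.5 FPKM, or 0.49 ± 0.12 in log2 (limma adjusted p = 0.0266). Sdhb, the iron-sulfur subunit and the most abundant of the 4, read 110, 83.5 and 92.3 in controls and 129, 139, 83.9, 111 and 132 in cKO. Its estimate was 0.31 ± 0.18 with an adjusted p of 0.269, and again cKO 3 lay among the controls. Sdha, the flavoprotein that oxidizes succinate, had the lowest estimate (-0.09 ± 0.10, adjusted p = 0.544), with 71.8 ± 4.20 FPKM in controls and 67.3 ± 5.59 in cKO. Sdhc, the other anchor, was at 0.11 ± 0.10.

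Complex III passes electrons from quinol to cytochrome c. Of its 8 tested genes 1 rose, and 7 estimates lay above 0, with a median of 0.19, which became -0.01 with TPM and -0.03 after quantile normalization. Uqcr10, a small accessory subunit beside cytochrome c1, read 109, 103 and 110 FPKM in controls and 153, 147, 125, 152 and 143 in cKO. The groups were apart, and cKO 3 was the lowest of the 5. The mean went from 107 ± 3.93 to 144 ± 11.4 FPKM, or 0.42 ± 0.10 in log2 (limma adjusted p = 0.0267). Neither core protein passed: Uqcrc1 averaged 92.9 ± 3.45 in controls and 98.3 ± 5.33 in cKO, and Uqcrc2, the lowest estimate of the complex at -0.05 ± 0.10, averaged 94.1 ± 0.549 and 91.0 ± 7.34. Uqcrfs1, the Rieske iron-sulfur protein, was at 0.24 ± 0.12 (adjusted p = 0.211). The most abundant pair was Uqcrh, the hinge protein for cytochrome c1, at 254 ± 10.8 FPKM in controls and 282 ± 62.3 in cKO, and Uqcrq, at 145 ± 9.84 and 162 ± 15.8.

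Complex IV, cytochrome c oxidase, had 15 of its 20 genes tested, of which 2 rose and 12 had estimates above 0. The median was 0.18, or -0.03 with either TPM or quantile normalization. Cox6c, a small single-span membrane subunit, read 76.8, 70.3 and 72.5 FPKM in controls and 106, 97.2, 89.2, 114 and 93.4 in cKO. All 5 cKO libraries were above the controls, at a log2 change of 0.44 ± 0.11 (limma adjusted p = 0.0268). The most abundant member of all was Ndufa4, at 574 ± 52.4 FPKM in controls and 652 ± 86.4 in cKO. Its related gene Ndufa4l2, known as a hypoxia-induced form, was listed at 0 in all 8 libraries. Cox7a2l, known as a factor for the assembly of complexes III and IV into supercomplexes, averaged 106 ± 16.7 and 117 ± 31.5. Whether it does so in these mice was not tested. Cox5b, a matrix-side subunit, averaged 33.3 ± 3.98 and 35.1 ± 2.47.

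The isoform pairs of complex IV showed the general form far above the restricted form in both groups. Cox4i1, the general form of the regulatory subunit 4, read 433, 391 and 421 FPKM in controls and 523, 456, 343, 391 and 498 in cKO. Its estimate was 0.08 ± 0.16, and the groups overlapped. Cox4i2, the form known from lung and from cells of vessel walls, read 0.0985, 0.207 and 0.294 in controls and 1.70, 0.673, 1.59, 1.275 and 1.95 in cKO. All cKO libraries were above all controls, on levels that remained far below those of Cox4i1. Cox4i2 met the filter of 1 FPKM in 3 libraries only through cKO, so its call and separation are not independent of that choice. The mean went from 0.200 ± 0.0982 to 1.44 ± 0.490 FPKM, a ratio of 7.18. The log2 fold change of 0.999 ± 0.193 (limma adjusted p = 0.0127) is on the log2(FPKM + 1) scale, which understates the change of so low a gene.

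The ends of both coding sequences, over the last 120 positions of their alignment, are shown to let a reader see how far the isoforms differ. They start at coding position 388 of Cox4i1 (chromosome 8) and 399 of Cox4i2 (chromosome 2). The pair differs at 38 of these positions, of which 2 are a gap in Cox4i2, and capitals mark the bases at them, 38 in Cox4i1 and 36 in Cox4i2.
Cox4i1: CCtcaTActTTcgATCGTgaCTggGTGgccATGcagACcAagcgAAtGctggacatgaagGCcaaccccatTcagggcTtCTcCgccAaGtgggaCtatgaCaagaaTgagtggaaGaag
Cox4i2: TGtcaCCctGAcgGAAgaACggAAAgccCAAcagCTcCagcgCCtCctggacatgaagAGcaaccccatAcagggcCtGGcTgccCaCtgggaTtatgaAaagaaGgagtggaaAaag
Over the whole coding sequence the pair was 64.0% identical. The identities of the other complex IV pairs were 56.6% for Cox6a1 and Cox6a2, 60.8% for Cox6b1 and Cox6b2, 61.6% for Cox7a1 and Cox7a2, 64.8% for Cox7b and Cox7b2, and 53.0% for Cox8a and Cox8b.

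Cox4i2 occupies bases 152754173 to 152765037 of chromosome 2 in mm10. Its start lies 16762 bases after the end of Id1, a target of BMP signaling, which read 16.7 ± 2.57 FPKM in controls and 278 ± 30.4 in cKO (log2 fold change 3.98 ± 0.13, adjusted p = 6.86e-07). A transcript of Bcl2l1, an inhibitor of cell death, is annotated from base 152758732 on, over part of the Cox4i2 locus. It was listed at 0 in all 8 libraries. Bcl2l1 transcripts averaging 16.7 and 9.04 FPKM in controls and 27.6 and 21.6 in cKO lie from base 152780664 on, past Cox4i2. The Bcl2l1 gene as a whole went from 26.7 ± 0.902 to 51.9 ± 8.78 FPKM (0.92 ± 0.14, limma adjusted p = 0.00541). The use of strand is not given in the sources used here, so reads from overlapping transcripts cannot be told apart. The 9 smooth muscle and pericyte markers summed to 265, 49.3 and 83.5 FPKM in controls and to 91.8, 15.1, 92.4, 44.4 and 49.2 in cKO. None of the 5 of them tested was called. The pericyte markers Rgs5 and Kcnj8 were highest in control 1, at 2.15 and 1.72 FPKM, and no cKO library was above that. In cKO 1 and cKO 3 both were above control 2 and control 3, and in the other cKO libraries neither was above control 3. Higd1b was at 0 in 2 of the cKO libraries. The 5 endothelial markers summed to 2.70 to 6.12 in controls and 2.93 to 4.69 in cKO.

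The other restricted forms stayed low. Cox7a1, the muscle form of subunit 7a, read 4.62, 4.74 and 4.87 FPKM in controls and 3.70, 4.52, 2.76, 3.22 and 4.55 in cKO. It was the lowest estimate of complex IV and the only member with every cKO library below the controls, by a margin too small to pass (-0.29 ± 0.14, adjusted p = 0.199). Cox7a2, its general counterpart, averaged 114 ± 6.43 and 142 ± 19.0 (0.30 ± 0.13, adjusted p = 0.159). Cox6a1 averaged 188 ± 9.81 and 234 ± 24.7 FPKM (0.31 ± 0.12, adjusted p = 0.116), while Cox6a2, its muscle form, was listed at 0 in controls and between 0.0363 and 0.202 in cKO. Cox6b1 averaged 344 ± 16.0 and 427 ± 62.1 (0.30 ± 0.15), and Cox6b2, the testis form, 1.21 ± 0.925 and 1.06 ± 0.365. Cox7b averaged 75.6 ± 3.90 and 102 ± 21.6 (0.40 ± 0.18, adjusted p = 0.161), and Cox7b2 was listed at 0 throughout. Cox8a averaged 310 ± 8.11 and 340 ± 31.7. Cox8b, a muscle form, read 0.0939, 0 and 0.0838 in controls and 0 in every cKO library, and Cox8c was listed at 0 in all. The 5 skeletal and cardiac muscle markers summed to 5.39, 0.466 and 0.838 FPKM in controls and to at most 0.778 in cKO, with Myl2 at 0 in 7 of the 8 libraries.

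**Figure D3:**
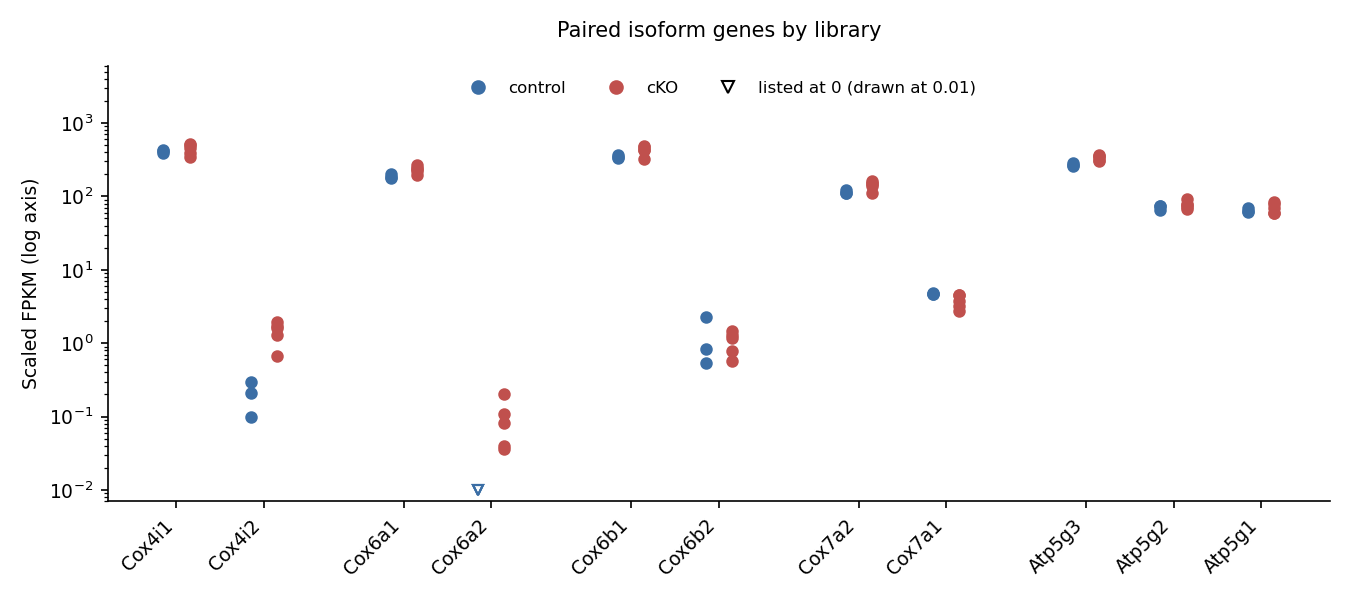
Scaled FPKM on a log axis of 11 isoform genes of complexes IV and V in each library (blue controls, red cKO, open triangle for values listed at 0). Cox4i1 lies near 400 in both groups and Cox4i2 below 2, where its red points lie above its blue points; the 3 Atp5g genes lie between 59.4 and 362.

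Complex V, the ATP synthase, was the complex in which all 15 tested estimates were above 0, from 0.04 for Atp5d to 0.31 for Atp5l. The median was 0.18, or -0.02 with TPM and -0.05 after quantile normalization. None of the 15 was called, and 3 were higher and 0 lower at an unadjusted p below 0.05, where 15.9% of all genes were higher and 15.6% lower. In the catalytic head, Atp5b, the beta subunit that makes ATP and the most abundant gene of the complex, read 442, 402 and 388 FPKM in controls and 468, 415, 426, 524 and 447 in cKO. Those values overlapped (0.15 ± 0.12, adjusted p = 0.435). Atp5a1, the alpha subunit, was at 0.15 ± 0.11, and Atp5d, the delta subunit of the central stalk, at 0.04 ± 0.11 with means of 170 ± 4.61 and 175 ± 16.7 FPKM.

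Atp5g1, Atp5g2 and Atp5g3 encode the same mature c subunit of the proton-driven ring behind different import sequences. Atp5g3 was the most abundant, with 270, 259 and 284 FPKM in controls and 345, 301, 313, 357 and 362 in cKO. The groups were apart, and the estimate of 0.31 ± 0.11 did not pass (adjusted p = 0.102). Atp5g2 averaged 71.1 ± 4.60 and 77.4 ± 9.24, and Atp5g1 64.4 ± 4.17 and 69.8 ± 10.6, with estimates of 0.12 ± 0.11 and 0.11 ± 0.13. The coding sequences of the 3 genes were 67.4% to 68.9% identical.

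Among the stalk and membrane genes, Atp5l, the g subunit of the membrane part, averaged 51.8 ± 3.79 FPKM in controls and 65.4 ± 11.7 in cKO (0.31 ± 0.15, adjusted p = 0.190). Atp5f1, the b subunit of the outer stalk, averaged 59.7 ± 1.87 and 72.3 ± 8.07 (0.27 ± 0.11, adjusted p = 0.133), and its groups were apart. Atp5o, the oligomycin-sensitivity protein that joins stalk and head, averaged 74.9 ± 3.17 and 87.0 ± 6.33 (0.21 ± 0.09, adjusted p = 0.157), also apart. Of the genes that share only the prefix, Atp5s read 2.03 ± 0.0438 and 2.22 ± 0.370 FPKM, and Atp5sl 14.9 ± 1.23 and 13.1 ± 2.11.

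In 6 of the 84 genes no test was made, and for Ndufs5 a near copy bears on that. Ndufs5, an accessory subunit of complex I, is annotated at bases 123712710 to 123718186 of chromosome 4 and was listed at 0 in all 8 libraries. BC002163, a near-identical gene annotated on chromosome 16, had a second row in the files at the Ndufs5 locus. The first 120 coding bases of Ndufs5 and the matching bases of BC002163 are shown because they hold the only differences over the coding sequence, 316 of 318 bases being identical; capitals mark them.
Ndufs5: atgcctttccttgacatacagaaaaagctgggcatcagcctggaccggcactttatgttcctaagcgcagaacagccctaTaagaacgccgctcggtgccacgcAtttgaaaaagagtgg
BC002163: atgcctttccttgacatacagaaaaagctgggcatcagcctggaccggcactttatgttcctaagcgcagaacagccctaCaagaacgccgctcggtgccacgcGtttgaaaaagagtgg
The row of BC002163 on chromosome 16 averaged 69.6 ± 2.71 FPKM in controls and 73.5 ± 7.06 in cKO, and the row at the Ndufs5 locus 6.11 ± 0.398 and 7.86 ± 0.677. Their sum did not pass the test (0.10 ± 0.10, adjusted p = 0.516). The row at the Ndufs5 locus read 5.7 to 6.5 FPKM in controls and 6.8 to 8.4 in cKO, groups that did not overlap. That row was not tested alone, and how many transcript rows separate in this way was not computed. How reads of so similar a pair were divided between the rows cannot be told from the deposited values, so no level is given for Ndufs5.

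Other subunit genes have pseudogene copies in the genome as well. A pseudogene transcript of at least 90% identity over at least 80% of the coding sequence was found for 32 of the 84 genes, Ndufs5 included. There were 13 for Atp5l, 5 for Atp5h, 4 each for Atp5g1, Cox7b, Cox7c and Uqcrb, and 2 for Cox6c. The best copies of Atp5l, Cox7c, Atp5g2 and Ndufb4 were 100% identical over the match. The median estimate was 0.08 for the 47 tested genes with no copy, 0.18 for the 29 with 1 to 4 and 0.28 for the 2 with 5 or more. The FPKM of genes with such copies is uncertain, since the division of shared reads is not given in the sources used here, and the part of this in the estimates was not tested.

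The cKO libraries were unlike each other for these genes. Measured from the control mean of each gene, the 78 tested members had a median log2 deviation of 0.24 in cKO 1, 0.16 in cKO 2, -0.05 in cKO 3, 0.15 in cKO 4 and 0.24 in cKO 5. cKO 3 was the lowest of the 5 for 54 of 78 members, 69.2%, against 21.3% of all tested genes. For 21 members the other 4 cKO libraries were all above the controls and only cKO 3 was not. The count of members above every control was 65 in cKO 1, 53 in cKO 2, 21 in cKO 3, 52 in cKO 4 and 60 in cKO 5. In cKO 3 the member furthest above its control mean was Cox4i2. The called members are all among the 16 with every cKO library above every control, so their place in cKO 3 is no separate result.

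**Figure D4:**
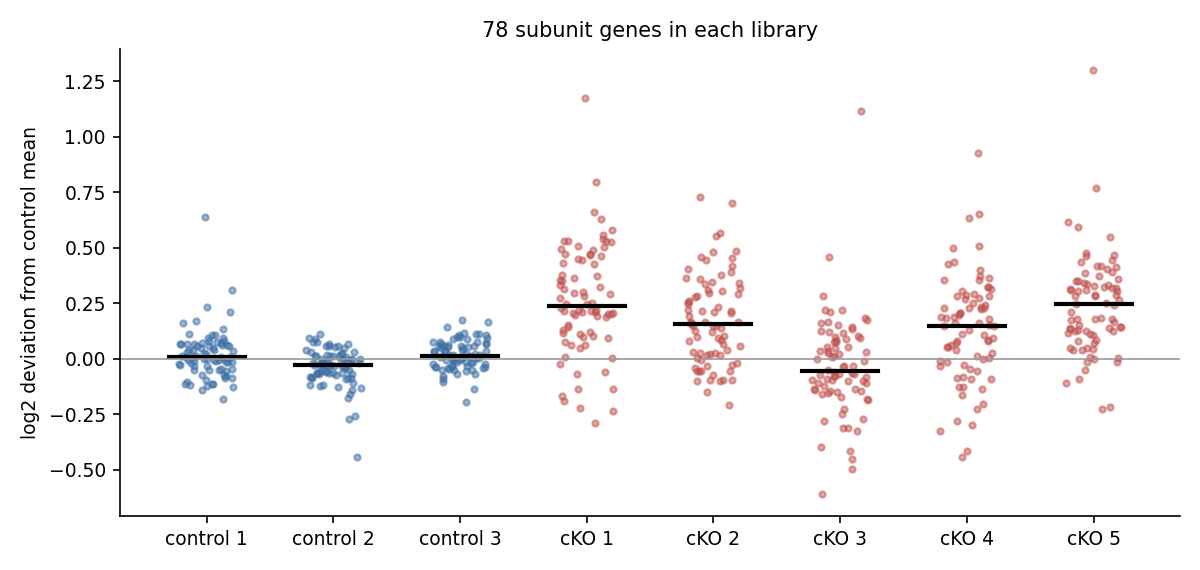
Deviation of each of the 78 tested subunit genes from its own control mean (vertical axis, on log2(FPKM + 1)) in each library, with the library median as a black bar. The medians of cKO 1, 2, 4 and 5 lie between 0.15 and 0.24 and that of cKO 3 at -0.05.

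Without cKO 3 the count of members called higher was 10 and the member median 0.20, with Cox7a2, Cox7b, Ndufa11, Ndufb6, Ndufb11 and Ndufs4 joining the 4. Without control 1 the count was 1, without control 2 and without control 3 it was 0, and without cKO 1 it was 2, so single libraries of both groups decide how many pass. Leaving out both libraries of the second title run gave 2 calls, Cox4i2 and Sdhd, and a median of 0.10. That run holds no control, so a comparison within it cannot be made. The leukocyte and stromal marker sums of cKO 3 were the highest of the 5 cKO libraries, and its estimated depth, 44.2 M, the lowest of all 8. The 8 leukocyte markers summed to 337, 333 and 504.2 FPKM in controls and to 1310, 1233, 1936, 343 and 1848 in cKO, mostly from S100a8 and S100a9, which neutrophils and stressed epithelium both make. None of the 5 tested was called. At an unadjusted p below 0.05, 3 were higher and 1 lower, against 15.9% and 15.6% of all tested genes. Ptprc read 1.69, 1.55 and 2.83 in controls and 3.43, 10.2, 7.90, 3.03 and 5.25 in cKO. Its groups were apart (limma adjusted p = 0.0615). Cd68 went the other way, from 101 ± 18.9 to 68.5 ± 19.6 FPKM with overlapping groups (limma adjusted p = 0.116). Lyz2 averaged 16.3 ± 3.71 and 21.3 ± 10.8 and also overlapped (limma adjusted p = 0.613). The 8 stromal markers summed to 246, 173 and 107 in controls and to 57.2, 121, 244, 51.5 and 65.2 in cKO, with none of the 6 tested called. With stromal and muscle level as a term in the model, 1 member, Cox4i2, was called and the member median was 0.10. The part of the leukocyte level was not tested.

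**Figure D5:**
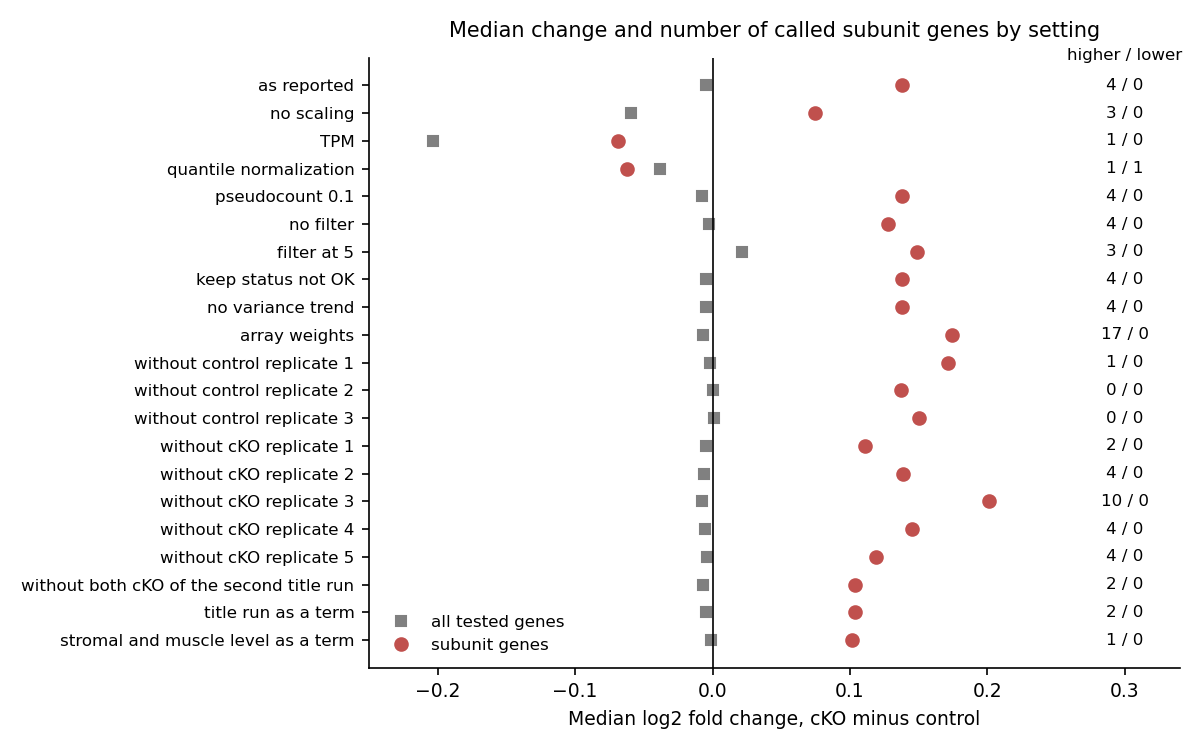
Median log2 fold change of the subunit genes (red circles) and of all tested genes (grey squares) under each processing setting, with the number of subunit genes called higher and lower at the right. The subunit median lies above 0 in all settings but TPM and quantile normalization, and the calls run from 0 to 17 higher and from 0 to 1 lower.

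Length was looked at because these genes have short transcripts, with a median of 666 bases against 2721 over all tested genes. The 1022 tested genes with a main transcript of up to 1000 bases had a median log2 fold change of 0.16, and 67.5% of them were above 0. The 10293 longer genes had a median of -0.02. Among the members, the 54 short ones had a median of 0.14, near that of other short genes, and the 24 longer ones 0.13. The share of short genes called higher was 10.8%, against 5.56% of the short members. What part transcript length played in the member median was not tested.

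Genes around the chain were read from lists of the same pathway. Of 15 tested assembly factors of complex I, 1 rose, Ndufaf2, a chaperone of late assembly, which read 5.48, 6.69 and 7.09 FPKM in controls and 11.1, 8.04, 10.5, 11.4 and 8.34 in cKO. All cKO libraries were above the controls (0.55 ± 0.14, limma adjusted p = 0.0342). Among these 15, 2 were higher and 1 lower at an unadjusted p below 0.05, against 15.9% and 15.6% of all genes. By limma, 0 were called among 4 assembly factors of complex II, 4 of complex III, 18 of complex IV and 3 of complex V. At an unadjusted p below 0.05 these held, in the same order, 0, 0, 1 and 1 higher and 0, 1, 1 and 0 lower. The shares of all genes at that threshold, 15.9% higher and 15.6% lower, apply to each list below as well. So do the shares of all genes called at an adjusted p below 0.05, 7.27% higher and 6.98% lower. The most abundant of these were Sdhaf4 and Sdhaf2, Uqcc2 and Uqcc3, Cox17 and Coa3, and Tmem70 and Atpaf2. Cox17, which carries copper to complex IV, averaged 89.2 ± 5.23 and 97.7 ± 12.7 FPKM. The 6 subunit and carrier genes that the name pattern misses, among them Cyc1, the cytochrome c1 of complex III, and Cycs, cytochrome c, gave 0 calls, 3 higher and 0 lower at an unadjusted p below 0.05, and a median of 0.28. Cyc1 averaged 98.1 ± 7.73 and 101 ± 5.40 FPKM. A search by name for genes of the mitochondrial DNA matched 0 gene symbols, so none was analysed here.

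Of the 16 tested regulators of mitochondrial biogenesis, 1 rose and 0 fell. Unadjusted p-values below 0.05 were reached by 2 higher and 3 lower, against 15.9% and 15.6% of all tested genes. In 2 regulators every cKO library was above every control, against 11.7% of all tested genes. In 3, Tfb1m, Esrra and Polrmt, every cKO library was below, against 12.9%. Polg2, the accessory subunit of the mitochondrial DNA polymerase, read 2.47, 2.52 and 2.97 FPKM in controls and 4.62, 6.14, 3.20, 4.24 and 4.98 in cKO (0.61 ± 0.16, adjusted p = 0.0400). The factors whose motifs were searched did not pass: Nrf1 averaged 7.43 and 6.49 FPKM, Gabpa 7.82 and 8.05, Yy1 22.2 and 22.8, and Esrra, the estrogen-related receptor alpha, 28.4 and 24.1 (-0.23 ± 0.09, adjusted p = 0.119). Tfam, which packs mitochondrial DNA, averaged 5.42 and 5.99, and the coactivator Ppargc1a was at most 0.394 FPKM and was not tested.

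Of 11 carriers and channels of the mitochondrial membranes, 1 rose and 1 fell, where 7.27% of all tested genes were called higher and 6.98% lower. Slc25a4, an exchanger of ADP for ATP that feeds and drains complex V, went from 67.6 ± 1.92 to 99.1 ± 12.8 FPKM (0.54 ± 0.12, adjusted p = 0.0214), and Slc25a1, the citrate carrier, from 108 ± 4.57 to 75.4 ± 10.2 (-0.52 ± 0.12, adjusted p = 0.0271). Both had every cKO library on the same side of the controls. Unadjusted p-values below 0.05 were reached by 4 of the 11 carriers and channels as higher and by 1 as lower. Of 14 fatty acid oxidation genes, Acadl, the long-chain acyl-CoA dehydrogenase, rose from 14.5 ± 2.20 to 23.9 ± 3.58 FPKM (0.67 ± 0.14, adjusted p = 0.0178). Acadm, the medium-chain enzyme, fell from 37.8 ± 7.81 to 21.3 ± 5.004 (-0.81 ± 0.21, adjusted p = 0.0370). Of these 14, 2 were higher and 1 lower at an unadjusted p below 0.05. Of 18 genes of the citric acid cycle and pyruvate dehydrogenase 0 were called, with a median of 0.08. At an unadjusted p below 0.05, 1 was higher and 1 lower, against 15.9% and 15.6% of all tested genes. The most abundant genes of these 18, Mdh2 and Suclg1, averaged 177 ± 4.10 and 98.7 ± 9.04 FPKM in controls and 201 ± 21.6 and 92.8 ± 7.34 in cKO.

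Of 7 mitochondrial antioxidant genes 1 rose, Prdx3, a peroxidase of the matrix, from 36.4 ± 3.48 to 55.6 ± 8.03 FPKM (0.59 ± 0.13, adjusted p = 0.0209). Among these 7, 2 were higher and 0 lower at an unadjusted p below 0.05. Of 76 tested proteins of the mitochondrial ribosome, which translates the subunits encoded in mitochondrial DNA, 5 rose and 3 fell, with a median of 0.03. Over all tested genes 7.27% were called higher and 6.98% lower. At an unadjusted p below 0.05, 16 of the 76 were higher and 5 lower, against 15.9% and 15.6% of all tested genes. Mrpl4 rose by 0.46 ± 0.09 and Mrpl51 by 0.39 ± 0.08 on the log2(FPKM + 1) scale, and Mrps18a by 0.54 ± 0.12. Mrps31 had a log2 fold change of -0.61 ± 0.13.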

How the data were processed

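RNA of mouse uterine epithelium was sequenced as 3 control and 5 Smad2/3 cKO libraries. The submitters' processing notes name the mm10 genome and, as tools, TopHat, Cufflinks and bcl2fastq 1.8.3. Strand use and the annotation release were not given in the sources used here. For each of 34535 RefSeq transcripts the authors deposited an FPKM per library, with its interval and status. They also deposited a coverage signal, per the file headers, which gave no level here. Per the labels' protocols, random and poly-dT primers were used together for cDNA. No read counts were used. Depth was estimated from how wide the FPKM intervals are.

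FPKM was summed per gene symbol and scaled by median ratios over 9939 genes with at least 1 FPKM in every library. Genes with at least 1 scaled FPKM in 3 libraries were tested (15 genes whose status was not OK were left out, none of them a member) by limma 3.58.1 in R 4.3.3 on log2(FPKM + 1), with a variance trend, two-sided, Benjamini-Hochberg adjustment over all 11315 genes and a threshold of 0.05. The script was tested on simulated data. Coding sequences were compared with blastn 2.17.0 and Biopython 1.88. The members and the lists were chosen with earlier results of these data known. Named were called members, in each complex the 2 most abundant and the highest and lowest estimate, all isoform families, and from other lists up to 4 called genes or, with none called, the 2 most abundant; other names were added after seeing values. There were 20 alternatives.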

Additional observations from a re-analysis of the deposited data

Results flagged for a closer look

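In 3 members 1 cKO library lay far from the other 4. The gap to its nearest neighbour, as a share of the whole range of the 5, passed Dixon's critical value of 0.71. Ndufb11 read 43.9 FPKM in cKO 3, against 61.9 to 65.2 in the others. Sdhd read 146.6 FPKM in cKO 5, against 109 to 118 in the others, all of which were above every control. Uqcr11 read 75.8 FPKM in cKO 2, against 59.6 to 63.5 in the others. Among the 85 groups of 5 values looked at, chance flags about 1 in 20.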

How the results depend on the processing

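The 4 calls depended on the settings. Of the 20 alternatives, the count of members called higher was 1 with TPM, 1 with quantile normalization, 17 with array weights, 2 without both libraries of the second title run, 2 with the title run as a term and 1 with stromal and muscle level as a term. Leaving out 1 library at a time gave 0 to 10 higher and 0 lower. Quantile normalization gave 1 called lower, Ndufa7, and the other alternatives 0. Without control 2, and without control 3, fewer calls were made over all genes too, 238 and 243 higher. Uqcr10 and Cox6c each lost their call in 9 of 20 alternatives, with adjusted p from 0.00459 to 0.168 and from 0.00442 to 0.188. Sdhd lost its call in 7 of 20 (0.00589 to 0.141), and Cox4i2 in 2 of the 19 in which it was tested, those without control 2 and without control 3 (0.00256 to 0.0652). Cox4i2 met the filter only through its cKO libraries, so its few lost calls are no separate support for it. With the filter at 5 FPKM it was not tested. No called member changed direction. The cause of these differences was not tested. No paired analysis was possible because the labels give no replicate numbers shared between the groups. FPKM without read counts gives no counting error, which limits low genes such as Cox4i2 most.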

Other observations

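Some transcript rows of a gene were listed at 0 in 1 group. The minor transcript NR_033306 of Ndufs6 read 2.54, 2.89 and 2.88 FPKM in controls and 0 in all 5 cKO libraries, while the coding transcript NM_010888 of Ndufs6 read 23.5 to 27.5 and 31.4 to 37.1. The transcript NM_001160039 of Ndufs1 read 3.41, 3.68 and 2.39 FPKM in controls and 0 in cKO, while NM_145518 of Ndufs1 read 13.0 to 13.1 and 17.5 to 20.4. The noncoding transcript NR_103515 of Ndufa7 read 0 in controls and 16.4, 14.6, 7.47, 11.9 and 0 in cKO. These transcripts share most of their exons, no test was made on them, and a value of 0 here can be how the estimate divided shared reads.

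Ndufv3 was mostly the short transcript NM_001083891, at 101, 88.0 and 80.9 FPKM in controls and 121, 122, 63.7, 106 and 95.5 in cKO. The long transcript NM_030087 of Ndufv3 read 12.7 to 14.7 in controls and 8.28 to 12.0 in cKO. The groups of this long transcript did not overlap. No share of transcript rows that do so was computed. Among sums per gene, cKO lay wholly below the controls in 12.9% of all tested genes. The long transcript was singled out after its values were seen.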
